A study of Caenorhabditis elegans with 2 samples.

Results

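Of the 1861 AMA-1 ChIP-seq peaks in the optimal list from whole C. elegans larvae, 303 had their summit between genes and away from the ends of protein-coding genes (16.3%, Wilson 95% interval 14.7 to 18.03%). A summit was a member when it lay outside every protein-coding gene of the WBcel235 annotation, more than 500 bp from every protein-coding 5′ end, and not within 500 bp past a protein-coding 3′ end. The choice used position only, so the peak signal, the noncoding genes at the summits and the sequence under them were not part of it, whereas the distances from coding genes start at the limits it set. The bases that meet the same rule make up 25.6% of the 6 chromosomes. Of the other 1558 summits, 837 were near a 5′ end by these limits, 533 were inside a gene and 188 were just past a 3′ end.

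The study immunoprecipitated AMA-1 from wild-type N2 animals at the L2 larval stage, taken whole, with both sexes pooled and an age given as unknown. It holds 1 group with 2 biological replicates, and no treatment, mutant or other stage is set against it. Each peak carries a signal value given by the authors, whose scale is not known here, so it orders peaks within a list and is not compared between lists. Read depth is unknown. In whole animals, binding in a few cells and weak binding in many cells cannot be told apart, and ChIP does not tell which DNA strand is transcribed.

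AMA-1 forms the catalytic core of RNA polymerase II as its largest subunit. Besides messenger RNAs, this enzyme transcribes the primary transcripts of microRNAs, long noncoding RNAs, most spliceosomal snRNAs and the SL RNAs, whose spliced leader is joined to the 5′ ends of nematode messages. SL2 RNA serves the downstream genes of operons. tRNA genes are transcribed by RNA polymerase III and the large rRNAs by RNA polymerase I, while C. elegans piRNAs (21U RNAs) come from very many short RNA polymerase II genes that act in the germline.

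The sequences under 8 strong intergenic summits on chromosomes II, III, IV and X, from the RefSeq copy of WBcel235 (plus strand), are examples from the top of the set. In sls-2.2 the annotated gene is in capitals, with the 100 bases before it in lower case (chrII:5543498-5543707). The other windows run 100 bases to each side of the summit, and capitals mark GAGAGA or its reverse complement TCTCTC. They are in C30E1.9 (chrX:16929935-16930135) and tts-1 (chrX:1504535-1504735), both long noncoding genes. The 5 that follow are the strongest with no annotated noncoding gene within 500 bp, between lgg-1 and C32D5.10 (chrII:6348374-6348574), between F54F12.1 and Y39E4B.6 (chrIII:13061335-13061535), before cah-4 (chrX:13541461-13541661), between F37C4.5 and F37C4.6 (chrIV:3874507-3874707) and beside Y17G7B.18 (chrII:12102365-12102565).
sls-2.2: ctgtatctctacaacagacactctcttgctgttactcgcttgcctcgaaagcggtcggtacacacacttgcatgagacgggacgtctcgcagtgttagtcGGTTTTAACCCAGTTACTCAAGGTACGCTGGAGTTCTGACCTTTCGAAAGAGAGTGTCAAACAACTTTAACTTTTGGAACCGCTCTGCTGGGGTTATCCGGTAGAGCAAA
C30E1.9: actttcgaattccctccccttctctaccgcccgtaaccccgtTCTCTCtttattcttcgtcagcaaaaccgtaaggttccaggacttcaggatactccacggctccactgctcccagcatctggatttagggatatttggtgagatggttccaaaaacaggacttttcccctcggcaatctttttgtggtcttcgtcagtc
tts-1: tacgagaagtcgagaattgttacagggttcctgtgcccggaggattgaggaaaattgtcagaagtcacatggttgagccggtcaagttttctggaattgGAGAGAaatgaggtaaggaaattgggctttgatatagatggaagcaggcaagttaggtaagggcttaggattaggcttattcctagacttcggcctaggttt
Summit between lgg-1 and C32D5.10: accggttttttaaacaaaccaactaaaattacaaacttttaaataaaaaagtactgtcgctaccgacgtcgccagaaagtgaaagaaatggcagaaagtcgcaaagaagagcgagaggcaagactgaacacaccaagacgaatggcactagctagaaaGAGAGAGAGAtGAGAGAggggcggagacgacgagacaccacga
Summit between F54F12.1 and Y39E4B.6: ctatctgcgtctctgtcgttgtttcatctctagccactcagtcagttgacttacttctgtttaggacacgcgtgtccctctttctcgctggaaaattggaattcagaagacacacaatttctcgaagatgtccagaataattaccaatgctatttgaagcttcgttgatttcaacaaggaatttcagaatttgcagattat
Summit before cah-4: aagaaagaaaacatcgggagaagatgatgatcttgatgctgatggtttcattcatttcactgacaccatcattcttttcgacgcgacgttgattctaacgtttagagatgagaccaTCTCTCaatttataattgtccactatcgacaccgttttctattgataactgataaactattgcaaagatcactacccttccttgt
Summit between F37C4.5 and F37C4.6: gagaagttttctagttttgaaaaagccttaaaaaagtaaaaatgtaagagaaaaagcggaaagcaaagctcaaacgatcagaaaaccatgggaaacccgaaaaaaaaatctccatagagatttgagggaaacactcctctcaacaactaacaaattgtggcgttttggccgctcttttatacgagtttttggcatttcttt
Summit beside Y17G7B.18: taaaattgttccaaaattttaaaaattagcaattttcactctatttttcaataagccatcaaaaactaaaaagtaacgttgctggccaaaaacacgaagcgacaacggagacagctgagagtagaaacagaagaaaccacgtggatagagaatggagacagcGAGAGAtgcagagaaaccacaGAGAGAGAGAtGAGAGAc

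The windows at C30E1.9, tts-1, lgg-1, cah-4 and Y17G7B.18 hold the GA motif, and those at F54F12.1 and F37C4.5 do not. There was also no match around the summit of sls-2.2 or the strongest summit of the noncoding gene W05H9.3, which is not printed. Of all members 41.9% held the motif, so the printed windows do not stand for the set. At tts-1 the centre of the motif lay 1 bp from the summit. Beside Y17G7B.18 the longest unbroken GA run was 11 bases, as at lgg-1. The capital letters of sls-2.2 begin with the spliced leader itself.

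Of the microRNA genes at the summits, 4 are represented by 1 mature arm each, because these arms group the genes by seed (bases 2 to 8, in capitals). They were read from the genome at the RefSeq positions of the mature RNAs, for mir-52 at chrIV:14034024-14034047 on the plus strand, for mir-53 at chrIV:11027653-11027676, for mir-80 at chrIII:8865285-8865307 and for mir-238 at chrIII:8867343-8867365, the last 3 on the minus strand.
mir-52: cACCCGUAcauauguuuccgugcu
mir-53: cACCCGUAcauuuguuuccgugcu
mir-80: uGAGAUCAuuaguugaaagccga
mir-238: uUUGUACUccgaugccauucaga

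mir-52 and mir-53 carry the same seed and belong to the mir-51 family, whose members act redundantly in the embryo. mir-80 carries the seed of the mir-58 family, the C. elegans relatives of the Drosophila microRNA bantam.

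Noncoding genes lay near a large minority of the intergenic summits. A noncoding gene of any class other than piRNA genes and pseudogenes was within 500 bp of 105 of 303 (34.7%, Wilson 95% interval 29.5 to 40.2%), against 18.2% of the other summits, 20.8% of all optimal summits and 12.2% of the eligible intergenic bases. Within 100 bp the shares were 22.4% of the intergenic summits, 11.8% of the other summits and 4.90% of the eligible bases. The summit was inside such a gene in 36 members (11.9%), against 5.46% of the other summits and 2.77% of the eligible bases. The intervals cover counting error over summits, and no test was made, since there is 1 group and neighbouring summits are not independent.

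The largest class was ncRNA, the annotation's general class of 7764 short and long noncoding transcripts, with 86 members within 500 bp (28.4%, against 13.4% of the other summits and 10.1% of eligible bases). snoRNA genes, whose products guide the modification of ribosomal and spliceosomal RNAs, were near 15 members (4.95%, against 3.27% and 0.349%). microRNA genes were near 12 members (3.96%, against 1.28% and 0.418%), which lay at 9 microRNA genes. lincRNA genes were near 8 (2.64%, against 0.770% and 1.20%), snRNA genes near 3 (0.990%, against 0.963% and 0.0700%) and tRNA genes near 2 (0.660%, against 1.28% and 0.690%). An SL2 gene was near 1 member (0.330%, against 0.834% and 0.0134%) and near 13 of the other summits. No member had a gene of the rRNA, antisense or SL1 class within 500 bp, which with 0 of 303 allows a share of up to 1.25% (upper Wilson bound). The other summits had 0%, 0.321% and 0%, and the eligible bases 0.0994%, 0.101% and 0.0469%. With shares this small, the absence of these classes does not set the members apart. A summit can stand near genes of several classes and then counts in each.

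**Figure D1:**
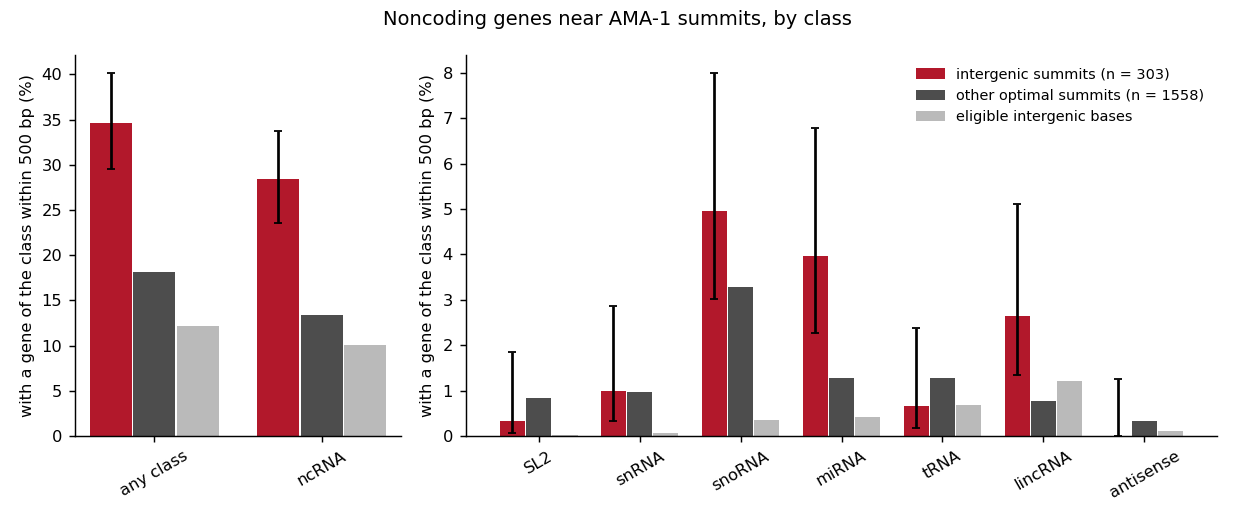
Bars give the percentage with a gene of the class within 500 bp for the 303 intergenic summits (left bar of each group, with Wilson 95% intervals), the 1558 other optimal summits (middle) and the eligible intergenic bases (right). Any class means all but piRNA genes and pseudogenes. The intergenic bar stands at 34.7% for any class and at 3.96% for miRNA. It is the lowest of the 3 for antisense (0 members) and for tRNA, where it is close to the eligible bases (0.660% against 0.690%).

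The strongest intergenic summits were at noncoding genes. Their signal ran from 47.5 to 1417 with a median of 62.4 (quartiles 52.6 and 82.8), against a median of 65.8 for the other summits (quartiles 54.7 and 87.5). Members held 7 of the 25 highest places in the optimal list and 17 of the highest 100. Of the members 22.8% were among the 465 peaks of highest signal, against 25.4% of the other summits. Of the 25 members of highest signal, 17 had a noncoding gene other than a piRNA gene or pseudogene within 500 bp, 2 had only a pseudogene, 1 only a piRNA gene, and 5 had none. Such a gene was near 34.7% of all 303 members. The 17 are not separate places, since C30E1.9, cel-mir-52, tts-1 and W05H9.3 each had more than 1 of them. At C30E1.9, cel-mir-52 and tts-1, some of these summits shared 1 deposited interval.

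The SL2 gene sls-2.2, on the plus strand of chromosome II (5543598 to 5543707), held the strongest member. Its summit at 5543693 was 95 bp from the gene's 5′ end and 819 bp past the 3′ end of the insulin-like gene ins-13. The peak reached 1417 in the optimal list, where it ranked 2, with 1012 in replicate 1 (rank 2 of that list) and 408 in replicate 2 (rank 3). The annotation places an ncRNA, C17C3.23, on the opposite strand over the same bases. Another SL2 gene, sls-2.3, lay 471 bp from the summit on the minus strand. Of the 32-base words in the window of 100 bases to each side, 74.1% were unique in the genome, so reads from other SL2 copies could have been placed there. The only summit stronger than it, at sls-2.4, is not a member because it lay within 500 bp past a protein-coding 3′ end.

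Long noncoding genes on the X chromosome gave the next group. C30E1.9, an ncRNA gene of 14770 bp (chromosome X, 16929914 to 16944683), held 6 members, the most of any gene here. The first summit, 121 bp from its 5′ end, reached 1050.3 in the optimal list, 682 in replicate 1 and 378 in replicate 2. Those at 1027 and 1591 bp reached 458 and 365. A further one at 320 bp had 93.9, and was ranked 58 in replicate 2 and 5707 in replicate 1. These 4 summits share 1 deposited interval of 2248 bp. The remaining pair lay towards the 3′ end of the gene, at 12854 bp with 55.1 and at 14244 bp with 150.2. Signal was thus highest near the annotated start and lowest at 12854 bp.

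tts-1, a long noncoding RNA first described from sequences with telomere-like repeats and later found on ribosomes of long-lived mutants, held a summit 206 bp from its 5′ end (635.9 in the optimal list, 506 in replicate 1 and 134 in replicate 2). The gene lies on the minus strand of chromosome X (1504131 to 1504841). A second summit, 50 bp past its 3′ end, had 171 in the optimal list, 174 in replicate 1 and 27.2 in replicate 2. The replicates ranked this summit 58 and 833 in their own lists. W05H9.3 (chromosome X, 6252274 to 6253785) had a summit 146 bp from its 5′ end, with 331 in the optimal list, 225 in replicate 1 and 130 in replicate 2. Another lay 234 bp past its 3′ end (140.1, 78.9 and 58.8). Both genes thus had their higher summit in the stretch after the annotated start and a lower one beyond the end.

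**Figure D2:**
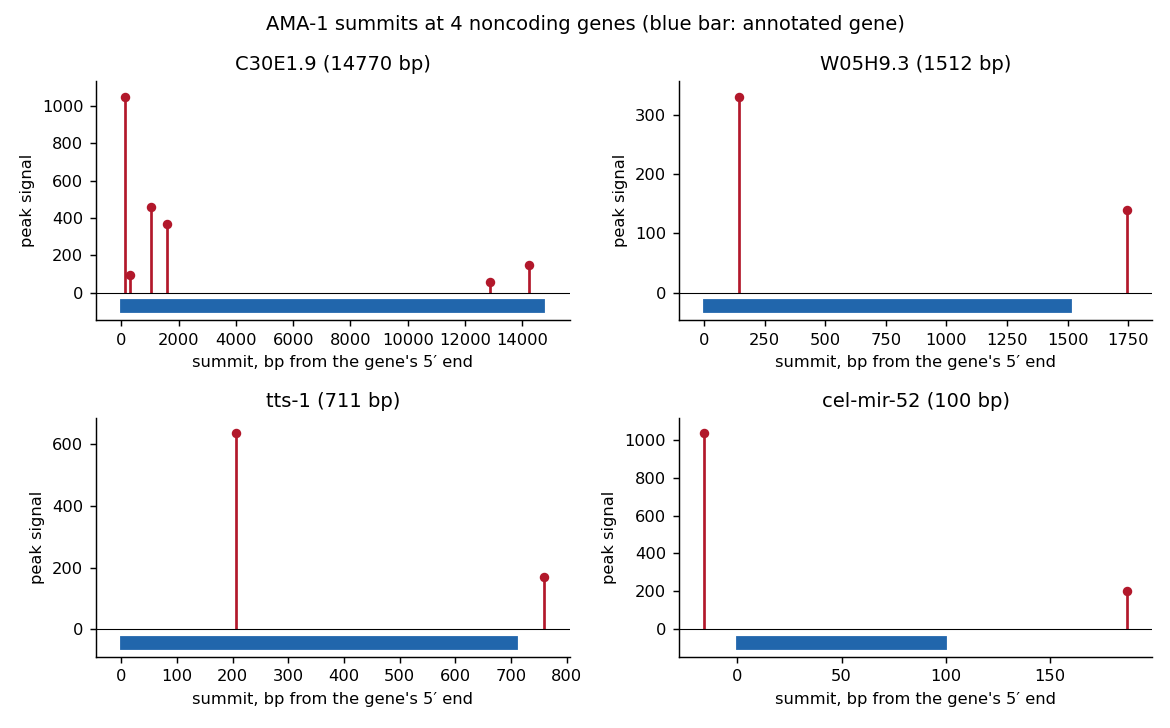
Each panel plots the peak signal of the optimal list (vertical axis, linear) against the distance of the summit from the 5′ end of 1 noncoding gene in bp (horizontal axis, gene orientation), for the intergenic summits within 500 bp of that gene, and the blue bar spans the annotated gene. The highest summit lies 121 bp after the start of C30E1.9, 146 bp after that of W05H9.3, 206 bp after that of tts-1 and 16 bp before that of cel-mir-52.

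MicroRNA genes accounted for 12 members with a median signal of 107, and 7 of these lay within 100 bp of the annotated precursor. cel-mir-52 (chromosome IV, 14034008 to 14034107) had a summit 16 bp before its 5′ end with 1033 in the optimal list, 640 in replicate 1 and 410 in replicate 2, where it ranked 2. A second summit lay 88 bp past its 3′ end (204.5, 84.9 and 71.5). The summit of cel-mir-53 was inside the gene, 50 bp from its 5′ end, with 238 in the optimal list, 206 in replicate 1 and 27.6 in replicate 2. The 2 genes with the shared seed therefore both had a member, and the replicates ranked that of mir-53 far apart, at 42 and 794.

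At cel-mir-80 the nearest summit was 110 bp before the 5′ end (216, with 133 in replicate 1 and 97.5 in replicate 2), among the 25 highest. cel-mir-238, which lies on the same strand of chromosome III in the same gap between plg-1 and K01F9.2, had a summit 28 bp before its 5′ end (114.8, 82.2 and 31.0). At cel-mir-79 a summit lay 38 bp past the 3′ end (64.0, 41.8 and 34.1). At cel-mir-239b a summit lay 2 bp before the 5′ end (52.6, 56.0 and 19.1). The summit inside cel-mir-8196a, 21 bp from the lincRNA gene linc-154, had 98.9 in the optimal list and 62.2 in replicate 2, and no peak of replicate 1 overlapped it in the whole list. A pair of summits outside the rule for named members, chosen after their values were seen, lay before a 5′ end, at 104 bp for cel-mir-228 (129, 108 and 22.5) and at 108 bp for cel-mir-79 (84.4, 84.5 and 6.77). The summit before cel-mir-228 was also inside the ncRNA gene T12E12.44. At mir-79 the summit before the gene was thus the higher in the optimal list. The nearest summit before the precursor was within 110 bp at mir-52, mir-79, mir-80, mir-228, mir-238 and mir-239b. Summits lay inside it at mir-53 and mir-8196a, and within 100 bp past it at mir-52 and mir-79. Also outside the rule for named members, and farther away, a summit lay 408 bp before the 5′ end of cel-mir-1 (60.9 in the optimal list). Another lay 427 bp past the 3′ end of cel-mir-80 (50.5).

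snRNA genes had 3 members at 2 genes. A summit on chromosome V lay 39 bp past the 3′ end of T08G5.11 (128 in the optimal list, 76.7 in replicate 1 and 69.2 in replicate 2). A summit 50 bp past the 3′ end of C47F8.9 on chromosome II, near the histone gene his-42, had 113, 53.6 and 56.2. Another 200 bp along, inside C47F8.9, had 56.8, 40.5 and 6.10, and only 17.6% of the 32-base words around it were unique, the lowest share of any member. The median of this share over the 3 snRNA members was 74.7%, so not all words were unique at a stronger summit either. Both stronger snRNA summits were ranked higher by replicate 2 (85 and 134) than by replicate 1 (334 and 765).

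snoRNA genes had 15 members within 500 bp with a median signal of 67.9, and 11 of them lay within 100 bp. The strongest, 82 bp past the 3′ end of F47G4.9 and 555 bp before the 5′ end of hmg-6 on chromosome I, had 241 in the optimal list, 164 in replicate 1 and 110 in replicate 2. The next, 35 bp before the 5′ end of K07C10.2 and inside the lincRNA gene K07C10.8 that surrounds it, had 198, 127 and 98.4. The summits inside Y67A10A.14 (98.5, 65.0 and 39.6), F25H2.15 (79.5, 13.6 and 40.5) and F55H12.9 (79.0, 36.6 and 42.1) followed among those within 100 bp. These 5 ranked higher in replicate 2, F25H2.15 with rank 273 there and 9991 in replicate 1. A summit 285 bp before M7.15, named after its values were seen, was the third of the 15 by signal (131, 114.7 and 28.3) and ranked higher in replicate 1, at 140 against 750 in replicate 2. Across all 15 snoRNA members, 9 ranked higher in replicate 2, against 34.3% of the 286 members found in both replicate lists and 33.5% of the other summits.

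The 8 members within 500 bp of a lincRNA gene had a median signal of 58.9 and reached 198, at K07C10.8. The lincRNA genes linc-91 (59.6), linc-136 (58.3) and Y41C4A.17 (49.9) held a summit inside the gene, at 2020, 5913 and 75 bp from their 5′ ends. The single member within 100 bp of a tRNA gene lay 55 bp before F46G11.t2 on the X chromosome and had 48.3, with 26.2 in replicate 1 and 23.1 in replicate 2. It ranked 293 of the 303 members by signal. The other member near a tRNA gene, 275 bp past C18A11.t2 and named after its values were seen, had 107, with 57.5 in replicate 1 and 55.2 in replicate 2.

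**Figure D3:**
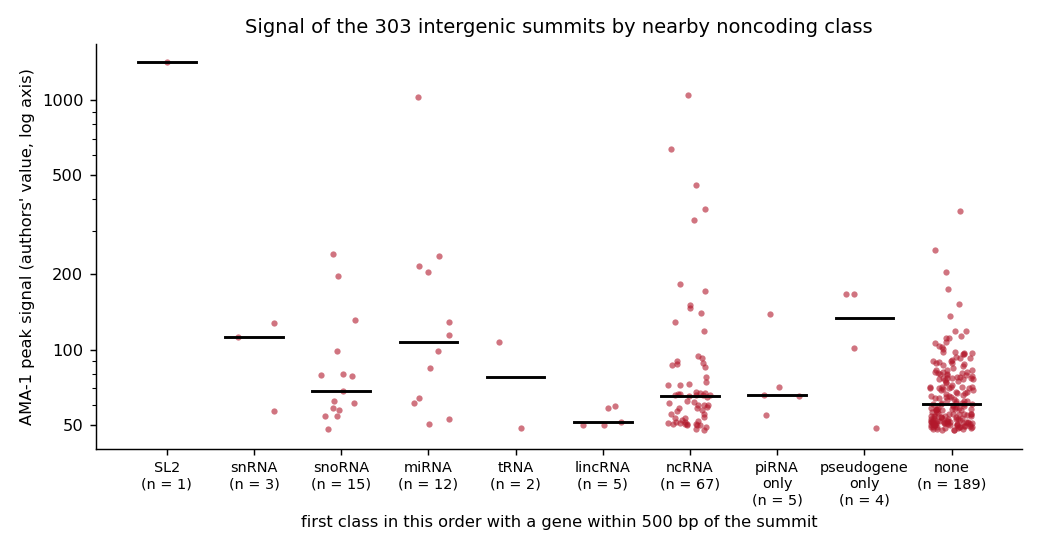
Each point is 1 of the 303 intergenic summits, placed by its signal in the optimal list (vertical log axis) under the first class, in the order shown, that has a gene within 500 bp, and bars mark medians. The medians are 107 for miRNA, 67.9 for snoRNA, 65.0 for ncRNA and 60.8 for summits with no noncoding gene, and the points above 400 belong to SL2, miRNA and ncRNA.

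Most intergenic summits had no annotated noncoding gene within 500 bp. Of the 303, 189 (62.4%) had none of any class, piRNA genes and pseudogenes included. Leaving those 2 classes aside, summits outside the set lacked a noncoding gene more often. One was near 34.7% of members, 18.2% of the other summits, 20.8% of all summits and 12.2% of the eligible bases. The signal of the 189 had a median of 60.8 and a highest value of 358. That peak, with its summit at position 6348474 on chromosome II, lay 755 bp before the 5′ end of lgg-1, which encodes an ATG8-like autophagy protein, and 733 bp past the 3′ end of C32D5.10. It had 302 in replicate 1 (rank 17) and 58.7 in replicate 2 (rank 118).

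The other 4 of the strongest 5 without a noncoding gene lay at chromosome III position 13061435 (250.3), X position 13541561 (205), IV position 3874607 (175) and II position 12102465 (152). The first was 5993 bp before the 5′ end of F54F12.1, and replicate 1 ranked it 33 with 234 while replicate 2 ranked it 2059 with 19.0. The second was 1013 bp before the 5′ end of cah-4, a carbonic anhydrase gene, with 169.5 in replicate 1 and 38.8 in replicate 2. The third lay 795 bp past the 3′ end of F37C4.6 and 801 bp before the 5′ end of F37C4.5 (161 and 30.3), and the fourth 866 bp past the 3′ end of Y17G7B.18 (151 and 15.8). All 5 were ranked higher by replicate 1.

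Among the remaining members of the highest 25, several lay before genes of known function without reaching their 5′ ends. The summit 957 bp before cbp-1, which encodes the CBP/p300 histone acetyltransferase, had 184 and lay 404 bp from the ncRNA gene R10E11.12. The summit 882 bp before ahcy-1, the gene of S-adenosylhomocysteine hydrolase, had 147 and was inside the ncRNA gene K02F2.11. The summit 2484 bp before the glutamine synthetase gene gln-3 had 138 and was inside the piRNA gene 21ur-6997. A summit of 168 lay 789 bp past the 3′ end of algn-12, near the pseudogene ZC513.7, and a summit of 166 lay 2893 bp before F07H5.13, near the pseudogene F07H5.5.

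The intergenic summits lay a median of 1307 bp from the nearest protein-coding gene (quartiles 844 and 2582, range 506 to 12977), against a median of 1819 bp for the eligible bases. Within 1000 bp lay 103 members (34.0%, against 24.8% of the eligible bases), and beyond 5000 bp lay 24 (7.92%, against 12.9%). The signal showed no order with distance, with medians of 67.0 within 1000 bp, 62.2 from there to 2000 bp, 60.1 to 5000 bp and 64.3 beyond. The nearest end was a 5′ end for 203 members (67.0%, against 63.4% of the eligible bases) and a 3′ end for the remaining 100 (against 36.6%). The median signal was 60.9 for those before a 5′ end and 68.6 for those past a 3′ end.

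Signals just inside and just outside the limits overlapped. Just inside, summits lay 512 bp before gob-1 (60.8), 515 bp before Y41C4A.22 (66.3) and 521 bp before ppm-1.A (85.5), and 506 bp past ubc-25 (79.5), 529 bp past T19C3.5 (53.2) and 536 bp past DH11.2 (77.3). Just outside, summits lay 487 bp before K12H4.5 (76.5), 470 bp before rps-28 (95.3) and 462 bp before ZK484.6 (88.0), and 467 bp past msp-57 (74.9), 461 bp past F38E11.9 (57.6) and 456 bp past smg-6 (48.0).

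For 43 of the 203 members before a 5′ end, the same gene also had an optimal summit within 500 bp of that end. For the other members on this side the intergenic summit was not accompanied by one at the annotated 5′ end. Past 3′ ends, 7 of 100 members had another summit within 500 bp past the same end. Over the whole list 837 summits were near a 5′ end, with 19973 protein-coding genes annotated, so most genes have none there. No matching share is given for genes away from the members, so neither count sets the members apart. Trans-splicing removes the start of many C. elegans messages, so that transcription of such a gene can begin before its annotated 5′ end, and a summit before a gene may then be nearer to its true start than the distance says. How many members this touches was not tested.

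**Figure D4:**
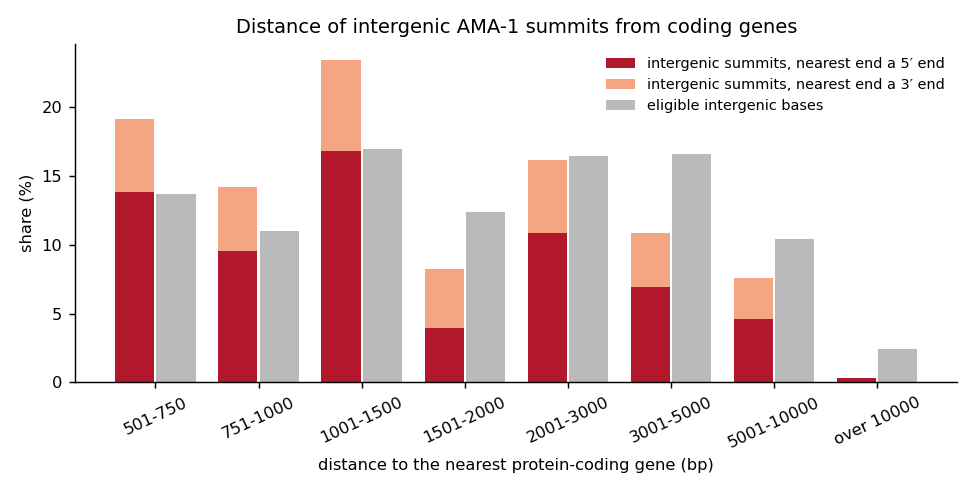
Bars give the share of the 303 intergenic summits (left, stacked by whether the nearest coding end is a 5′ or a 3′ end) and of the eligible intergenic bases (right) by distance to the nearest protein-coding gene in bp, in bins of unequal width. The summits exceed the bases in the bins up to 1500 bp and fall short of them beyond 1500 bp. Summits at exactly 1000 bp are counted in the bin above that limit, whereas the text counts them within 1000 bp.

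Most of the farthest members lay at a few places. The farthest of all, at chromosome IV position 5778316, was 12977 bp before C31H1.2 and 5 bp from the piRNA gene 21ur-6898, with 70.6 in the optimal list, 54.4 in replicate 1 and 16.1 in replicate 2. The other 9 of the 10 farthest lay within 2000 bp of just 3 noncoding genes, 4 at W05H9.3, 3 at cel-mir-52 and 2 at C30E1.9. They stood 7880 to 9711 bp from a coding gene and had signals from 48.4 to 1033.

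Gaps between convergent genes, where both neighbours end, held 25 members (8.25%, against 10.2% of the eligible bases) with a median signal of 114.8. Divergent gaps held 128 (42.2%, against 37.2%) with a median of 59.1, and gaps between genes on the same strand held 150 (49.5%, against 52.3%) with a median of 62.6. The convergent members were at 17 loci, and 20 of the 25 had a noncoding gene other than a piRNA gene or pseudogene within 500 bp, among them those of C30E1.9, tts-1, mir-52, mir-53, mir-80 and mir-238. The 5 convergent members without such a gene had a median of 76.8. In divergent gaps 42 of 128 had such a gene and in same-strand gaps 43 of 150.

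Members joined within 1000 bp of each other formed 261 loci, of which 224 held 1 member, 33 held 2 and 4 held 3 or more. The largest was the group of 4 at the start of C30E1.9. The others with 3 were beside W06H8.6 on chromosome V (52.7 to 112, near the ncRNA gene W06H8.14), between letm-1 and lpin-1 on chromosome V (54.3 to 80.1) and between DH11.2 and zyg-11 on chromosome II (52.6 to 80.01). letm-1 encodes a mitochondrial inner membrane protein, lpin-1 the worm lipin, and zyg-11 a substrate receptor of a cullin ubiquitin ligase. Counting all optimal summits, 95 members had another within 1000 bp. No such share is given for the other summits, so this count does not set the members apart.

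Every chromosome held intergenic summits. Chromosome X held 64 (21.1% of the members), against 12.9% of all optimal summits and 23.1% of the eligible bases, and 26.7% of its own summits were intergenic. Chromosome V held 38, which were 11.0% of its summits, against 20.5% of the eligible bases. Chromosomes I to IV held 50, 56, 44 and 51, or 12.6 to 18.4% of their summits. Per megabase of eligible sequence, chromosome I had 17.5 members and chromosome V 7.22, with X at 10.8. Median signal ranged from 58.0 on chromosome III to 69.9 on chromosome II.

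The sequence under the intergenic summits had a higher GC content and fewer masked bases than the eligible bases on average. Within 100 bases of the summit the median GC content was 40.8%, against 39.8% for the other summits and an average of 34.3% over the eligible bases. Soft-masked (repeat) bases made up a median of 20.9%, against 21.4% for the other summits and an average of 40.1% of the eligible bases. In 285 of 303 members (94.1%, against 94.7% of the other summits) every 32-base word of the window was unique in the genome.

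The 4 motifs looked for on both strands within 100 bases of the summit differed in their shares. GAGAGA was in 127 members (41.9%, Wilson 95% interval 36.5 to 47.5%), against 23.2% of the other summits and 10.4% of all windows of that length centred on eligible bases. TTTCAG, which matches the end of C. elegans introns, was in 19.5%, against 29.5% and 30.8%. TATAAA was in 18.8%, against 16.1% and 23.5%, and TTTTTT in 53.8%, against 54.0% and 67.3%. None of the other 3 can overlap GAGAGA or TCTCTC by more than 1 base, while TTTTTT can share 3 bases with TTTCAG or TATAAA. A match describes the letters and names no bound factor.

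The share with GAGAGA was alike for some divisions of the set and not for others. It was in 44 of 105 members with a noncoding gene within 500 bp and in 83 of 198 without one, both 41.9%. It was in 41.4% of members before a 5′ end and 43.0% of those past a 3′ end, and in 44.9% of the members among the 465 peaks of highest signal. Among the other summits the share was 21.4% at 5′ ends, 25.5% in gene bodies and 25% past 3′ ends, and 23.0% among those 465 peaks. Members whose peak was overlapped by the strongest peaks of both replicates held it in 54 of 128, those of replicate 1 alone in 54 of 125, those of replicate 2 alone in 18 of 40, and those of neither in 1 of 10. It was in 3 of 15 members whose class was snoRNA, 0 of 3 for snRNA, 5 of 12 for miRNA and 33 of 67 for ncRNA. By distance from a coding gene, it was in 38 of 103 within 1000 bp, 40 of 94 from there to 2000 bp, 42 of 82 to 5000 bp and 7 of 24 beyond. By chromosome it ran from 31.3% on X to 47.1% on IV.

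The median signal was 63.8 for members with GAGAGA and 62.3 for those without it, and their median masked share was 20.9% in both. Their median GC content was 41.8% with the motif and 39.8% without it. The motif was mostly short, since the longest GA run in the window had a median of 7 bases, was 10 or more in 27 members and at most 37. Every 32-base word was unique in 120 of the 127. The centre of the nearest match lay a median of 40 bp from the summit, and within 50 bp in 82 members. In steps of 50 bp from the summit, 26.7% of members had a match in the nearest step, 18.2% at 200 to 250 bp and 8.25% at 300 to 350 bp, while the other summits had 13.3%, 9.44% and 9.37%. In the list of replicate 2 alone the share was 31.7% of members against 19.9% of its other summits, and in replicate 1 alone 41.5% against 24.7%. With soft-masked bases left out it was 31.7% against 19.3%.

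**Figure D5:**
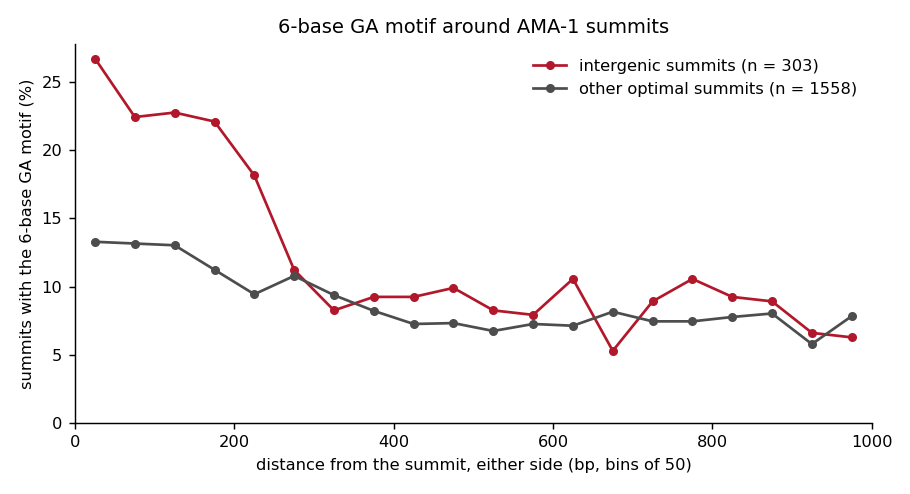
Points give the percentage of the 303 intergenic summits (red) and of the 1558 other optimal summits (grey) that have the motif GAGAGA or its reverse complement centred in each 50 bp step of distance from the summit, to either side. The intergenic line falls to 8.25% at 300 to 350 bp, against 26.7% in the nearest step, and from 250 bp on the lines lie close together.

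The intergenic summits were found in each replicate at about the share of the whole list. The 1861 strongest peaks of replicate 1 overlapped 253 of 303 members (83.5%), against 81.5% of all optimal summits, and those of replicate 2 overlapped 168 (55.4%), against 56% of all. Both replicates did so at 128 members, replicate 1 alone at 125, replicate 2 alone at 40, and neither at 10. In the whole replicate lists of 30000 peaks, 300 and 289 members were overlapped. The median rank of the overlapping peak was 1045.5 in replicate 1 and 1684 in replicate 2.

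Of the 33 members with an SL2, snRNA, snoRNA, microRNA or tRNA gene within 500 bp, 28 were among the strongest of replicate 1 and 26 among those of replicate 2. Of the 189 with no noncoding gene, 156 and 97 were. Among members found in both whole lists, the median rank of the small RNA members was 701 in replicate 1 and 597 in replicate 2, and that of members with no noncoding gene was 1081 and 2134.5. The small RNA classes did not share an order. The median rank of microRNA members was 267.5 in replicate 1 and 683.5 in replicate 2, with 4 of 10 ranked higher in replicate 2, and that of snoRNA members was 1201 and 732. The SL2 member ranked higher in replicate 1, and 2 of 3 snRNA and 2 of 2 tRNA members in replicate 2. No test was made of this, since each replicate is 1 library.

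The weakest members stood just above the lowest signal of the optimal list. The lowest 5 had 47.5 to 48.0, and they lay at chromosome II position 5017561, X position 10684654, III position 623813, II position 13737958 and V position 20776926. Replicate 2 had no peak at the first and the third of these. Their signals in replicate 1 were 42.3, 35.4, 40.0, 11.6 and 31.7, a range that overlaps the replicate 1 values of many snoRNA members.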

How the data were processed

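AMA-1 ChIP-seq peak lists from 2 biological replicates of whole N2 L2 larvae were used. Per the deposited file descriptions, the optimal list was derived by irreproducible discovery rate from both replicate lists and a pooled list. The peak caller, the aligner, versions and the threshold of that rate were not given in the sources used here. Column 7 holds the deposited signal value of each peak (scale not given) and column 10 its summit offset. Read depth is unknown. No column was left unmatched (0).

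Summits (start plus offset) on ce11 were placed against Ensembl release 115 of WBcel235, with 19973 protein-coding and 9426 noncoding genes other than piRNA genes and pseudogenes. Eligible bases meet the same rule as the members and were counted exactly. A replicate used alone stands for its strongest 1861 peaks, and overlap means at least 1 bp. Python 3.11.15 with numpy 2.4.6, pandas 2.3.3 and scipy 1.17.1 was used, and the placement was checked on a toy genome. The members and lists were chosen with earlier results of these data known. Named members are the 25 of highest signal, those within 100 bp of a small RNA, lincRNA or antisense gene (the 5 highest of a class with more than 10), the 10 farthest, the 10 loci with most members, the 5 lowest, and 3 on either side of each limit. No test between groups was possible with 1 group, and alternatives on the window, list, overlap and gene classes are given at the end. Lists on ce10 were not used.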

Additional observations from a re-analysis of the deposited data

How the results depend on the processing

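The number of members and their distance follow the window at coding ends by construction. With 250 bp there were 463 members (24.9% of all summits) at a median of 808 bp, and with 1000 bp there were 200 (10.7%) at 2111.5 bp. The 930 strongest peaks held 139 members with a median signal of 86.3. Without one of the replicates, the share of summits that were members was 14.6 to 16.2% and their median signal 26.7 to 47.3, on the replicates' own scales. The share with a noncoding gene was 11.9% inside the gene, 22.4% within 100 bp and 40.6% within 1000 bp. Overlap with replicate 1 was 76.2% and with replicate 2 46.2% when 50 percent of both peaks had to overlap, 75.9% and 45.9% with summits within 100 bp, 99.0% and 95.4% over whole lists, and 97.8% and 71.9% for the 930 strongest peaks. The GAGAGA alternatives were chosen after seeing the data. Its share was 31.7 to 41.5% without one of the replicates, 36.3% with 250 bp windows and 31.7% without soft-masked bases. The cause was not tested. No paired analysis was possible because there is 1 group. Unknown depth leaves the precision of each signal unknown.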

Other observations

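Annotated pseudogenes and piRNA genes lay near few of the intergenic summits, and pseudogenes but not piRNA genes fill much of the eligible space. A summit was inside a pseudogene in 1 member (0.330%), against 0.128% of the other summits and 10.8% of the eligible bases, and within 500 bp of one in 5 (1.65%, against 0.513% and 14.7%). A piRNA gene was within 500 bp of 9 members (2.97%, against 2.05% and 8.21%). A summit was inside a piRNA gene in 1 member (0.330%), against 0% of the other summits and 0.504% of the eligible bases. The annotation holds 15363 piRNA genes. The 5 members with a piRNA gene as their only noncoding neighbour were all on chromosome IV, with signals from 54.7 to 138. None of these shares was tested.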
